A study of Homo sapiens with 5 samples.

Results

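The genes described here make sterols and fatty acids or control that synthesis. The list holds 34 genes: 18 of sterol synthesis, 9 of fatty acid synthesis and 7 of sterol sensing and transport. A gene was read from probe sets that carry its symbol and no other, and from the probe set with the highest mean where there were several. In this way 31 of the 34 were measured, among 19775 genes measured in all, and all 31 passed the filter on dim genes that 14894 genes passed. FDFT1, CYP51A1 and FADS1 were not analysed here, which left 16 sterol genes, 8 fatty acid genes and the 7 genes of sensing and transport.

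Expression was measured in 5 established human lines of pancreatic origin, HPDE, HPAF1, PANC1, L3.6 and SU86.86, with 1 one-colour Affymetrix array of total RNA per line and no treatment. The labels name all 5 as lines of pancreatic cancer. In the field HPDE is known as an immortalised line of normal duct epithelium and the others as carcinoma lines, so each group is a single line with 1 array. Growth followed the protocol of the ATCC repository. The medium and serum of each line are not given in the sources used here. Medians of the arrays ran from 137 to 143 intensity units. The spread between arrays of 9 spike-in probe sets had a standard deviation of 0.10 at the median and 0.14 at most on the log2 scale. It covers hybridisation and scanning only, and is a spread of single arrays and not of differences between arrays. A difference past it is not thereby resolved between cultures. Levels below are log2(intensity + 71.1) and differences are log2 differences, so that 1 is a 2-fold difference, understated for dim genes. A level of 7.72 was the filter on dim genes. Levels of different genes come from different probe sets and are not compared with each other.

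Epithelial identity was checked first. All 7 measured epithelial markers lay above the level filter in every line except PANC1, where 6 did and the duct keratin KRT7 stood at 7.51. Their mean level ran from 10.55 in PANC1 to 13.44 in HPAF1, the line that also stood highest in much of the pathway, and the part of this in the results was not tested. Markers of other cells gave a mixed picture. Below the filter in all 5 lines were 3 of 3 measured acinar genes (CPA1, CELA3A and PNLIP), 3 of 5 islet genes (the hormones INS, GCG and SST), 2 of 4 leukocyte genes (PTPRC and CSF1R), 3 of 4 endothelial genes (VWF, CDH5 and KDR), 1 of 5 hepatocyte genes (ALB), 1 of 6 fibroblast genes (PDGFRB) and 0 of 5 adipocyte genes. Above it in every line were the islet genes CHGA (7.98 to 8.35) and PDX1 (8.39 to 8.64), the leukocyte gene CD3E (7.75 to 8.01) and the endothelial gene PECAM1 (8.96 to 9.53). So were the hepatocyte genes SERPINA1 (10.29 to 11.85), CYP3A4 (8.71 to 9.33) and APOA1 (7.96 to 8.42), the fibroblast genes COL1A1 (10.05 to 10.78) and DCN (7.93 to 8.27), and the adipocyte genes PLIN1 (8.04 to 8.28) and CIDEC (7.89 to 9.78). The mean level over 5 adipocyte markers lay between 7.60 (HPDE) and 8.25 (L3.6), and over 6 fibroblast markers it was 8.60 at most, in L3.6. Lysozyme, LYZ, listed for leukocytes and also made by gastric epithelium, was at 13.57 in HPAF1 and below the filter elsewhere. The part of these genes in the results was not tested.

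Cholesterol is built from acetyl-CoA through mevalonate, isoprenoid diphosphates, squalene and lanosterol, and fatty acids are built from the same acetyl-CoA through malonyl-CoA. The transcription factors SREBP-1 and SREBP-2, encoded by SREBF1 and SREBF2, govern these enzymes. They are made as membrane proteins of the endoplasmic reticulum, where INSIG proteins hold them and their escort SCAP while sterols are plentiful. When sterols fall, SCAP carries them to the Golgi apparatus, proteases free the active fragment, and it binds sterol regulatory elements together with NF-Y, the factor that recognises CCAAT boxes. SREBP-2 acts mainly on sterol genes and SREBP-1 mainly on fatty acid genes. INSIG1 is itself a target, which closes a feedback loop.

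The promoters were examined because most of these genes are known targets of that pair of factors. RefSeq promoters for GRCh38.p14 were found for 30 of the 34 genes, with 43 start sites. The 250 bases before each start were searched on both strands for a core sterol regulatory element (TCACNCCAC), for the CCAAT box (CCAAT) and for the GC box (GGGCGG). Matches were counted for each motif separately, and a base could belong to more than 1 of them. A CCAAT box was found for 20 of the 30 genes: 13 of 15 sterol genes, 4 of 8 fatty acid genes and 3 of 7 genes of sensing and transport. By start site it was in 55.8% of the 43 windows, against 32% of 35116 promoters of all genes, and 34.9% held at least 2 against 9.53%. A GC box was in 88.4% of the windows against 42.6% of all promoters. The sterol element was found for SREBF2 alone, 2.33% of the windows against 0.883%. Such matches describe letters and not bound sites.

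Below are the windows of SREBF2, the gene with the sterol element, of HMGCS1, MSMO1 and STARD4, whose levels were at least 2-fold higher in HPAF1 than the other lines averaged, and of ELOVL6, which had no CCAAT box and its highest level in another line. Capitals mark CCAAT boxes on either strand and, in SREBF2, the sterol element that starts 133 bases before the start site. The windows end just before the RefSeq start of each gene, at chr22:41832855-41833104 (plus strand) for SREBF2, chr5:43313413-43313662 (minus strand) for HMGCS1, chr4:165327419-165327668 (plus strand) for MSMO1, chr5:111512536-111512785 (minus strand) for STARD4 and chr4:110198616-110198865 (minus strand) for ELOVL6.
SREBF2: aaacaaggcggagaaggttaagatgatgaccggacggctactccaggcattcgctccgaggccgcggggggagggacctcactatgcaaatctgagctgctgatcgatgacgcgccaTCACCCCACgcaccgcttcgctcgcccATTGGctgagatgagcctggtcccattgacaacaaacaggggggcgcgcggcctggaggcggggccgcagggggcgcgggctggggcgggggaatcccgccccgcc
HMGCS1: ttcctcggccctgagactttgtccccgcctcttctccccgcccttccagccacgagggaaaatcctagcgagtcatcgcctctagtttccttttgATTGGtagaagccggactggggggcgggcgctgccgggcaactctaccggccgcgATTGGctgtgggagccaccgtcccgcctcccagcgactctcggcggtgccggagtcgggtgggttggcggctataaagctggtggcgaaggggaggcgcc
MSMO1: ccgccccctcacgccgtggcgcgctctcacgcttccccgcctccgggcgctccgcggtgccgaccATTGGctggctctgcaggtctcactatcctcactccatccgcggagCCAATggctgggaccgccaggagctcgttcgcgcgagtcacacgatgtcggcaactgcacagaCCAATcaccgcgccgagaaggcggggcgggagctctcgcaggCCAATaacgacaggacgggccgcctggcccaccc
STARD4: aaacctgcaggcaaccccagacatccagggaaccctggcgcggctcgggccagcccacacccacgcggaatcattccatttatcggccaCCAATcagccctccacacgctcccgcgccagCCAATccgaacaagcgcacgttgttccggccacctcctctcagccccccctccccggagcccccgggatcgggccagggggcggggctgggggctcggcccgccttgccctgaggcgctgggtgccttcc
ELOVL6: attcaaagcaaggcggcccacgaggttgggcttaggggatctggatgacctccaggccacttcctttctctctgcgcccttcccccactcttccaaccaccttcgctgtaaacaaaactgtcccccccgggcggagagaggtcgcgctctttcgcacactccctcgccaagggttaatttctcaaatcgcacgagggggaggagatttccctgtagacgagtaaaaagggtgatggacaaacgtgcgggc
In SREBF2 a CCAAT box lies 106 bases before the start, downstream of the sterol element. HMGCS1 and STARD4 carry 2 boxes each, 155 and 100 bases and 161 and 130 bases before the start. MSMO1 carries 4, and ELOVL6 carries 0. These windows are examples, and members not printed go otherwise. MVK and NSDHL carry 5 boxes each and in HPAF1 differed from the other lines averaged by 0.15 and 0.65. INSIG2 carries 0 and was 1.69 higher there.

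HPAF1 stood apart from the other 4 lines in this pathway. Of the 31 measured genes, 23 had their highest level in HPAF1, where 23.7% of all tested genes did. In 18 of the 23 the lead over the next line exceeded the largest spike-in standard deviation, and in 5 it did not. That measure holds no variation between cultures, so a lead past it is not thereby resolved. At least 2-fold higher in HPAF1 than the other lines averaged were 13 of the 31, beside 6.96% of all tested genes, and 0 were at least 2-fold lower, beside 6.3%. The 13 are spread over 10 chromosomes. By branch they were 8 of 16 sterol genes, 2 of 8 fatty acid genes and 3 of 7 genes of sensing and transport. A lead of 2-fold or more over every other line was seen in 6 genes, IDI1, LSS, MSMO1, SC5D, DHCR7 and ACSS2, beside 2.69% of all genes. By limma, fitted over all 14894 genes with 1 line against the other 4, 0 members passed an adjusted p of 0.05 in any line, beside 0.698% of all genes in HPAF1, 0.0671% in PANC1, 0.0336% in HPDE, 0.0134% in SU86.86 and 0 genes in L3.6. In HPAF1 11 members had an unadjusted p under 0.05, all higher, beside 9.46% of all genes in either direction and 5.65% higher, and the lowest limma adjusted p was 0.237, for MVD. Unadjusted counts were 2 each in L3.6 and SU86.86, 1 in HPDE and 0 in PANC1, beside 3.03%, 3.5%, 7.63% and 5.36% of all genes in that order. These p-values rest on the spread between different lines and not between cultures of a line. Limma without an intensity trend also passed 0 members in each line, beside 0.242% of all genes in HPAF1, 0.0269% each in PANC1 and HPDE, and 0 genes in SU86.86 and L3.6.

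Across the lines, 25 of the 31 genes had a range of at least 2-fold, beside 42.4% of all genes, and the median range was 1.47 against 0.85. The highest level was in L3.6 for 4 members, in HPDE for 2, in SU86.86 for 2 and in PANC1 for 0, beside 19.4%, 22%, 14.8% and 20.2% of all genes. The lowest level was in SU86.86 for 10 members, in PANC1 for 7, in L3.6 for 7, in HPDE for 6 and in HPAF1 for 1, beside 23.6%, 17%, 14.4%, 22.7% and 22.3%. Of 19 members with more than 1 probe set past the filter, 14 had the same highest line on all of them.

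**Figure D1:**
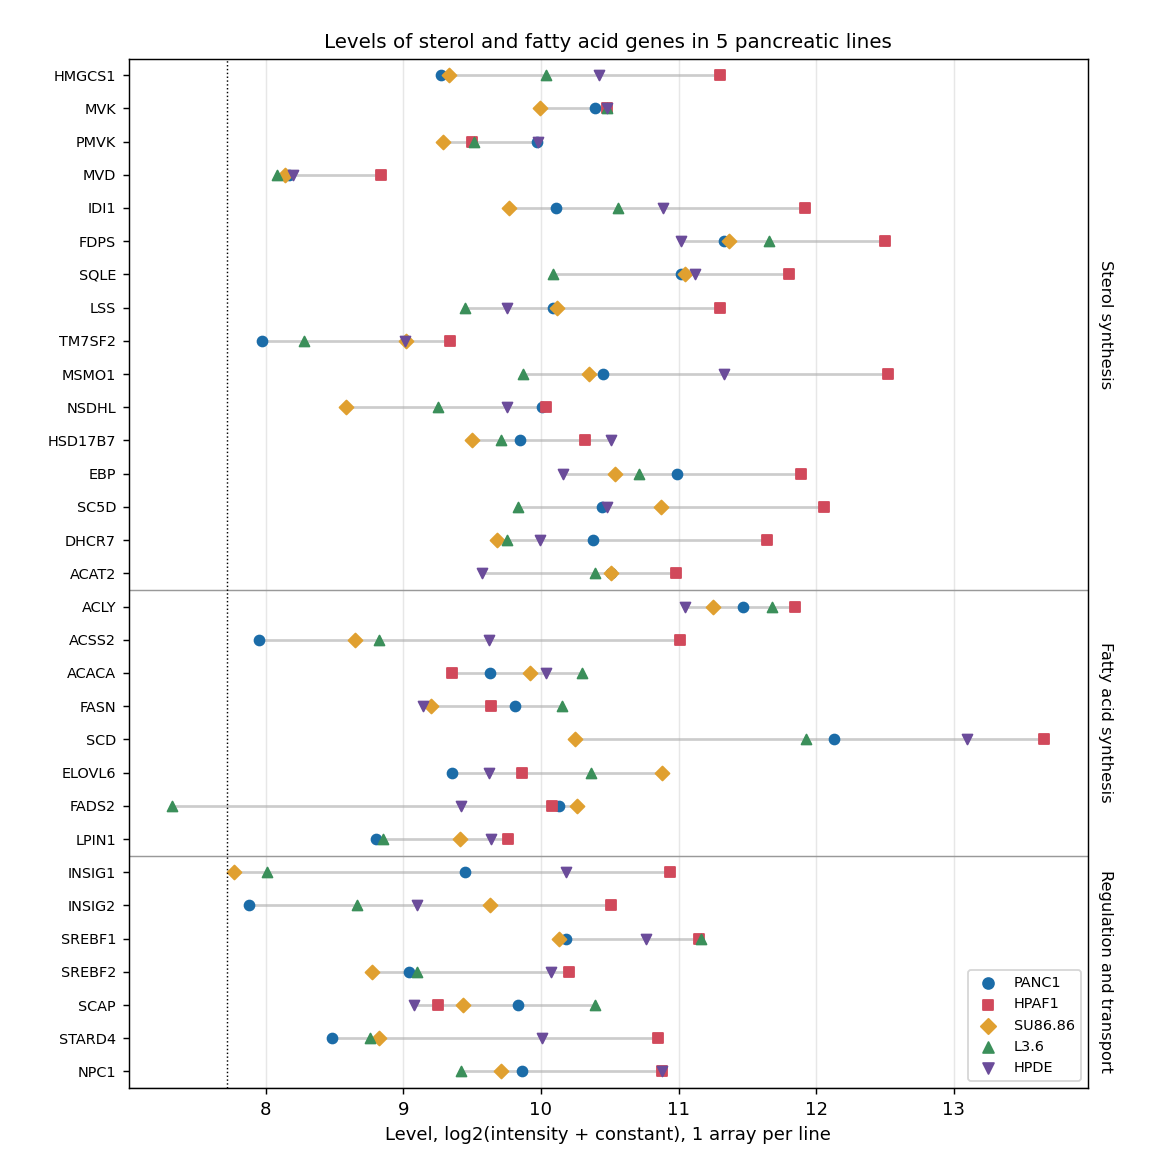
Level of each of the 31 measured genes in the 5 lines, on the log2(intensity + constant) scale, with 1 point per array and a grey bar over the range. The dotted line is the level filter at 7.72. HPAF1, the red squares, is at the right-hand end for 14 of 16 sterol genes.

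In the first part of the sterol pathway, HMGCS1, which makes hydroxymethylglutaryl-CoA, stood at 11.30 in HPAF1, 10.42 in HPDE, then 10.04 in L3.6, 9.33 in SU86.86 and, lowest, 9.27 in PANC1. The difference of HPAF1 from the others was 1.54 (SE 0.55, limma adjusted p = 0.488), and its other probe set gave 1.93. SU86.86 and PANC1 differed by less than the spike-in spread, so their order is not resolved. IDI1, the isomerase that sets the ratio of the isoprenoid building blocks, followed the same order at the top, with 11.92 in HPAF1, 10.89 in HPDE, 10.56 in L3.6, 10.11 in PANC1 and 9.77 in SU86.86. It was 1.58 higher in HPAF1 (SE 0.51, limma adjusted p = 0.427). FDPS, which joins the building blocks into farnesyl diphosphate, was at 12.50 in HPAF1, 11.66 in L3.6, 11.37 in SU86.86, 11.33 in PANC1 and 11.02 in HPDE, so HPDE was here the lowest line. ACAT2, the cytosolic thiolase that makes acetoacetyl-CoA, was likewise lowest in HPDE at 9.57, beside 10.39 in L3.6, with 10.51 in SU86.86 and in PANC1, and 10.98 in HPAF1. HPDE differed from the others by -1.03 for ACAT2, the one sterol gene at least 2-fold lower there (limma adjusted p = 0.626). The 3 phosphorylation and decarboxylation steps of mevalonate varied little. MVK and PMVK, mevalonate kinase and phosphomevalonate kinase, had ranges of 0.50 and 0.69 over the lines. MVD, the decarboxylase, had a range of 0.76, with 8.84 in HPAF1 and 8.08 to 8.20 elsewhere.

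Among the steps from squalene to lanosterol and cholesterol were the 2 widest ranges of the sterol branch, MSMO1 (2.65) and SC5D (2.23). IDI1 (2.14) and HMGCS1 (2.04), of the first part, came next. SQLE, squalene epoxidase, stood at 11.80 in HPAF1, 11.12 in HPDE, 11.05 in SU86.86, 11.02 in PANC1 and 10.09 in L3.6. HPAF1 was high and L3.6 low, with the other lines closer together than the spike-in spread. LSS, which closes the sterol rings, was at 11.30 in HPAF1, 10.12 in SU86.86, 10.09 in PANC1, 9.75 in HPDE and 9.45 in L3.6. MSMO1, a demethylase of lanosterol products, reached 12.52 in HPAF1, against 11.33 in HPDE, 10.45 in PANC1, then 10.35 in SU86.86 and 9.87 in L3.6. HPAF1 was higher than the mean of the other 4 lines by 2.02, or 4.05-fold (SE 0.60), the widest difference among the sterol genes. SC5D, the desaturase near the end of the pathway, was at 12.06 in HPAF1, 10.87 in SU86.86, 10.48 in HPDE, 10.44 in PANC1 and 9.83 in L3.6. That rests on 1 of its 2 probe sets: the other, between 7.18 and 7.84, near the level filter, gave -0.18 for HPAF1. DHCR7, which makes cholesterol from its last precursor, stood at 11.64 in HPAF1, 10.38 in PANC1, 9.99 in HPDE, 9.75 in L3.6 and 9.68 in SU86.86. The difference for HPAF1 was 1.69 (SE 0.39, limma adjusted p = 0.264), and 1.56 on its other probe set. EBP, the sterol isomerase, was at 11.89 in HPAF1, 10.99 in PANC1, 10.71 in L3.6, then 10.54 in SU86.86 and 10.16 in HPDE, so that HPDE was lowest as for FDPS and ACAT2.

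Other sterol enzymes did not separate HPAF1 as far. NSDHL, a dehydrogenase of the demethylation complex, was nearly level in HPAF1 (10.04) and PANC1 (10.01), followed by HPDE at 9.75 and L3.6 at 9.25, and was lowest in SU86.86 at 8.58, on both of its probe sets. TM7SF2, a sterol reductase, stood at 9.34 in HPAF1, 9.02 in SU86.86, 9.01 in HPDE, then 8.28 in L3.6 and 7.97 in PANC1. HSD17B7, the partner ketoreductase of NSDHL, was highest in HPDE at 10.51, with 10.32 in HPAF1, 9.85 in PANC1, 9.71 in L3.6 and 9.50 in SU86.86. Its only probe set carries the suffix of those that can match several transcripts, as did the probe sets used for 14 of the 31 genes.

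The fatty acid branch was mixed. Acetyl-CoA for synthesis comes from citrate through ACLY, whose range was 0.80 with the highest level in HPAF1, and from acetate through ACSS2. ACSS2 stood at 11.01 in HPAF1, 9.62 in HPDE, then 8.82 in L3.6, 8.65 in SU86.86 and, lowest, 7.95 in PANC1. HPAF1 was higher than the others by 2.25, or 4.77-fold (SE 0.63, limma adjusted p = 0.357), the widest difference above the other lines in the whole list. The core of chain synthesis did not follow this order. ACACA, which makes malonyl-CoA, had a range of 0.95 with its highest level in L3.6 and its lowest in HPAF1. FASN, the fatty acid synthase, stood at 10.15 in L3.6, 9.81 in PANC1, then 9.64 in HPAF1, 9.20 in SU86.86 and 9.14 in HPDE. HPAF1 differed from the other lines by 0.06 for FASN, less than the spike-in spread.

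Enzymes that lengthen or desaturate fatty acids differed in line by line fashion. SCD, which puts the double bond into stearate, was at 13.66 in HPAF1, 13.10 in HPDE, 12.13 in PANC1, 11.93 in L3.6 and 10.25 in SU86.86. SU86.86 differed from the others by -2.45 (SE 0.75, limma adjusted p = 0.997), with a gap of 1.67 to the next line, and the 3 other probe sets gave -2.41 to -1.95. In HPDE the used probe set gave 1.10 and the 3 others 0.50 to 0.61. ELOVL6, which extends palmitate, ran the other way, with 10.88 in SU86.86, 10.36 in L3.6, 9.86 in HPAF1, 9.62 in HPDE and 9.35 in PANC1. FADS2, the desaturase that opens polyunsaturated fatty acid synthesis, was at 10.26 in SU86.86, 10.13 in PANC1, 10.08 in HPAF1, 9.42 in HPDE and 7.32 in L3.6. L3.6, alone below the level filter, differed from the other lines by -2.66 (SE 0.41, limma unadjusted p = 0.00148, adjusted p = 0.538), with a gap of 2.10 to the next line. Another FADS2 probe set, between 8.08 and 8.20 in all lines, showed 0.02 for L3.6, so the low level rests on 1 probe set of 2. LPIN1, a phosphatidate phosphatase that feeds lipid synthesis, had a range of 0.96 with its highest level in HPAF1.

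**Figure D2:**
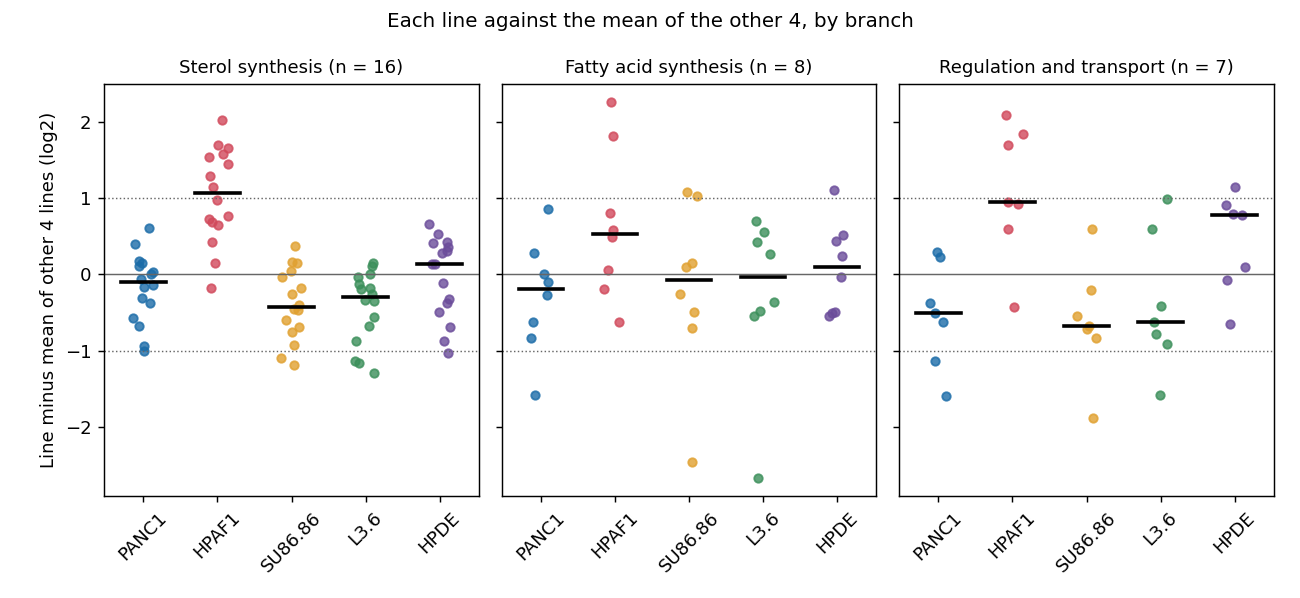
Difference of each line from the mean of the other 4 (log2) for the sterol, fatty acid, and sensing and transport genes; points are genes, black bars medians and dotted lines 2-fold. HPAF1 has medians of 1.06, 0.53 and 0.95, and the lowest points of the fatty acid panel are FADS2 in L3.6 and SCD in SU86.86.

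Summarised by branch, the median difference of HPAF1 from the other lines was 1.06 over sterol genes, 0.53 over fatty acid genes and 0.95 over genes of sensing and transport, beside -0.01 over all genes. The sterol and fatty acid medians were thus 0.53 apart in HPAF1. They were 0.34 apart in SU86.86 with sterol genes lower, 0.25 apart in L3.6 with sterol genes lower, 0.09 apart in PANC1 and 0.03 apart in HPDE. Where another probe set existed, those able to match several transcripts were also set aside, which touched 4 members and left 10 on such probe sets because they have no other. The HPAF1 medians were then 0.77 for sterol and 0.27 for fatty acid genes, with 15 sterol genes because IDI1 fell below the level filter. Sterol medians of the remaining lines were -0.43 in SU86.86, -0.30 in L3.6, -0.10 in PANC1 and 0.14 in HPDE. HPAF1 is part of the reference in each of these: without it they were -0.14 in SU86.86, -0.22 in L3.6, 0.06 in PANC1 and 0.29 in HPDE. The sterol median of HPDE was 0.00 without SU86.86 and 0.01 without L3.6, that of PANC1 was -0.28 without L3.6, and that of L3.6 was -0.46 without SU86.86. Fatty acid medians lay between -0.19 in PANC1 and 0.10 in HPDE, with -0.08 in SU86.86 and -0.04 in L3.6, and those of HPDE and L3.6 changed sign with 1 line left out, to -0.04 in HPDE without L3.6 and to 0.25 in L3.6 without HPAF1.

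Among the regulators, INSIG1, which retains SREBP in the endoplasmic reticulum, stood at 10.94 in HPAF1, 10.18 in HPDE, 9.45 in PANC1, 8.01 in L3.6 and 7.77 in SU86.86. L3.6 and SU86.86 lay near the level filter, and HPAF1 and HPDE lay at least 2-fold above the mean of the other lines, by 2.09 and 1.14. The order was not that of a single outlying line, since the range of 3.17 was filled by PANC1 between the extremes. All 3 probe sets of INSIG1 were highest in HPAF1, where the others gave 1.75 and 2.10, but in HPDE the others gave 0.43 and 0.97, short of 2-fold. INSIG2, the relative that is not induced in the same way, was at 10.51 in HPAF1, 9.63 in SU86.86, 9.10 in HPDE, then 8.66 in L3.6 and 7.88 in PANC1.

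The transcription factor genes differed less. SREBF2 stood at 10.20 in HPAF1, 10.07 in HPDE, 9.10 in L3.6, 9.04 in PANC1 and 8.77 in SU86.86. HPAF1 and HPDE were not separated beyond the spike-in spread, and both lay above the other lines by 0.97 or more on this probe set. On another bright SREBF2 probe set HPAF1 was at 9.94, apart from HPDE at 9.21 and L3.6 at 8.98. SREBF1 was at 11.16 in L3.6, 11.15 in HPAF1, 10.76 in HPDE, 10.18 in PANC1 and 10.13 in SU86.86. SCAP, the escort and sterol sensor, was at 10.39 in L3.6, 9.83 in PANC1, 9.43 in SU86.86, 9.25 in HPAF1 and 9.08 in HPDE, so that HPAF1 and HPDE, high for SREBF2, were the low lines for SCAP. STARD4, a carrier that moves cholesterol between membranes, stood at 10.85 in HPAF1, 10.01 in HPDE, 8.82 in SU86.86, then 8.76 in L3.6 and 8.48 in PANC1, with HPAF1 higher than the others by 1.84 (SE 0.63, limma adjusted p = 0.459). NPC1, which exports cholesterol from lysosomes, was level in HPAF1 and HPDE at 10.88 and lower in PANC1 (9.86), SU86.86 (9.71) and L3.6 (9.42). Its 2 other probe sets past the level filter were dim, with ranges of 0.46 and 0.25.

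Counts for the other lines were small. At least 2-fold lower than the mean of the others were 5 members in L3.6, 4 in SU86.86, 4 in PANC1 and 1 in HPDE, beside 4.72%, 2.59%, 5.54% and 5.57% of all genes. At least 2-fold higher were 2 in SU86.86 and 2 in HPDE, beside 5.29% and 6.48% of all genes, and 0 in PANC1 and in L3.6, beside 5.38% and 2.99%. In L3.6 the lower genes were SQLE, MSMO1, SC5D, FADS2 and INSIG1, in SU86.86 IDI1, NSDHL, SCD and INSIG1, and in PANC1 HMGCS1, ACSS2, INSIG2 and STARD4. The higher genes were ELOVL6 and FADS2 in SU86.86 and SCD and INSIG1 in HPDE. On other probe sets ELOVL6 in SU86.86 gave 0.32 to 0.95 and FADS2 gave 0.08, short of 2-fold. FADS2 in SU86.86 led PANC1, the next line, by 0.14. These counts moved with the reference. With HPAF1 left out, 7 members were higher in HPDE and 0 lower, 2 were lower in L3.6, 2 were lower in PANC1 and 1 was higher there. Without PANC1, 8 were lower in L3.6 with 1 higher, and 8 were lower in SU86.86 with 1 higher. Without SU86.86, 8 were lower in L3.6 with 1 higher, 1 was higher in PANC1, and in HPDE 0 were higher and 2 lower. Without L3.6, 1 was higher in HPDE and 1 in SU86.86. The HPAF1 count of 13 higher members was between 13 and 16 whichever line was left out, but 9 with the mean of all probe sets of a gene. It was 10 where probe sets able to match several transcripts were replaced. IDI1 was then dropped and not replaced, because its remaining probe set reached 7.68 at most, below the level filter. Of 21 differences of at least 2-fold, in any line, that a further probe set could check, 8 were 2-fold on every other probe set and 2 had an opposite sign on one of them. In HPAF1 LSS was 0.95 on its other probe set and EBP 0.40 to 0.93 on its others.

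HPDE took the place next to HPAF1 for 12 of the 31 genes, beside 6.01% of all genes with that order. Among genes highest in HPAF1, HPDE was second for 12 of 23 members, beside 895 of 3523 of all tested genes. The 12 were HMGCS1, MVD, IDI1, SQLE, MSMO1, ACSS2, SCD, LPIN1, INSIG1, SREBF2, STARD4 and NPC1. For 7 of them, HMGCS1, IDI1, MSMO1, ACSS2, SCD, INSIG1 and STARD4, HPAF1 was above HPDE and PANC1, SU86.86 and L3.6 below it by more than the spike-in spread in each case. For the other 5 at least 1 of these differences was within that spread, such as 0.01 for NPC1 and 0.13 for SREBF2 in HPAF1, so their order is not resolved. NPC1 and STARD4 were at least 2-fold below HPDE in PANC1, SU86.86 and L3.6. For NPC1 that rests on its brightest probe set, since its others past the level filter had ranges of 0.46 and 0.25. The share of all genes below HPDE in this way was not computed. Against HPDE alone, 10 members were at least 2-fold higher in HPAF1 and 0 lower, beside 7.77% and 9.27% of all genes. In PANC1 0 were higher and 7 lower, beside 8.47% and 9.26%, in SU86.86 1 was higher and 9 lower, beside 8.44% and 7.72%, and in L3.6 2 were higher and 7 lower, beside 6.55% and 8.59%. With quantile normalization PANC1 had 1 higher and 4 lower. These differences have 1 array on each side, share the HPDE array and have no replicate check.

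Medians against HPDE were taken by branch. Over the genes of sensing and transport the median was -1.02 in PANC1, with -1.17 in SU86.86 and -0.97 in L3.6, and 0.39 in HPAF1. Over sterol genes it was -0.03, -0.19 and -0.36 in those 3 lines and 0.96 in HPAF1. Over fatty acid genes it was -0.34, -0.03 and -0.27 in the same order and 0.53 in HPAF1. All genes together had medians between -0.03 and 0.03. The difference from HPDE was -2.41 in SU86.86 and -2.18 in L3.6 for INSIG1, and -2.84 in SU86.86 for SCD. Above HPDE in all 4 lines were ACAT2, ACLY, EBP, FASN, FDPS and SCAP, and below it in all 4 were HSD17B7 and PMVK. For FASN in SU86.86 (0.05) and PMVK in PANC1 (-0.01) the difference was within the spike-in spread, so its direction is not resolved. The share of all genes with such a pattern was not computed.

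**Figure D3:**
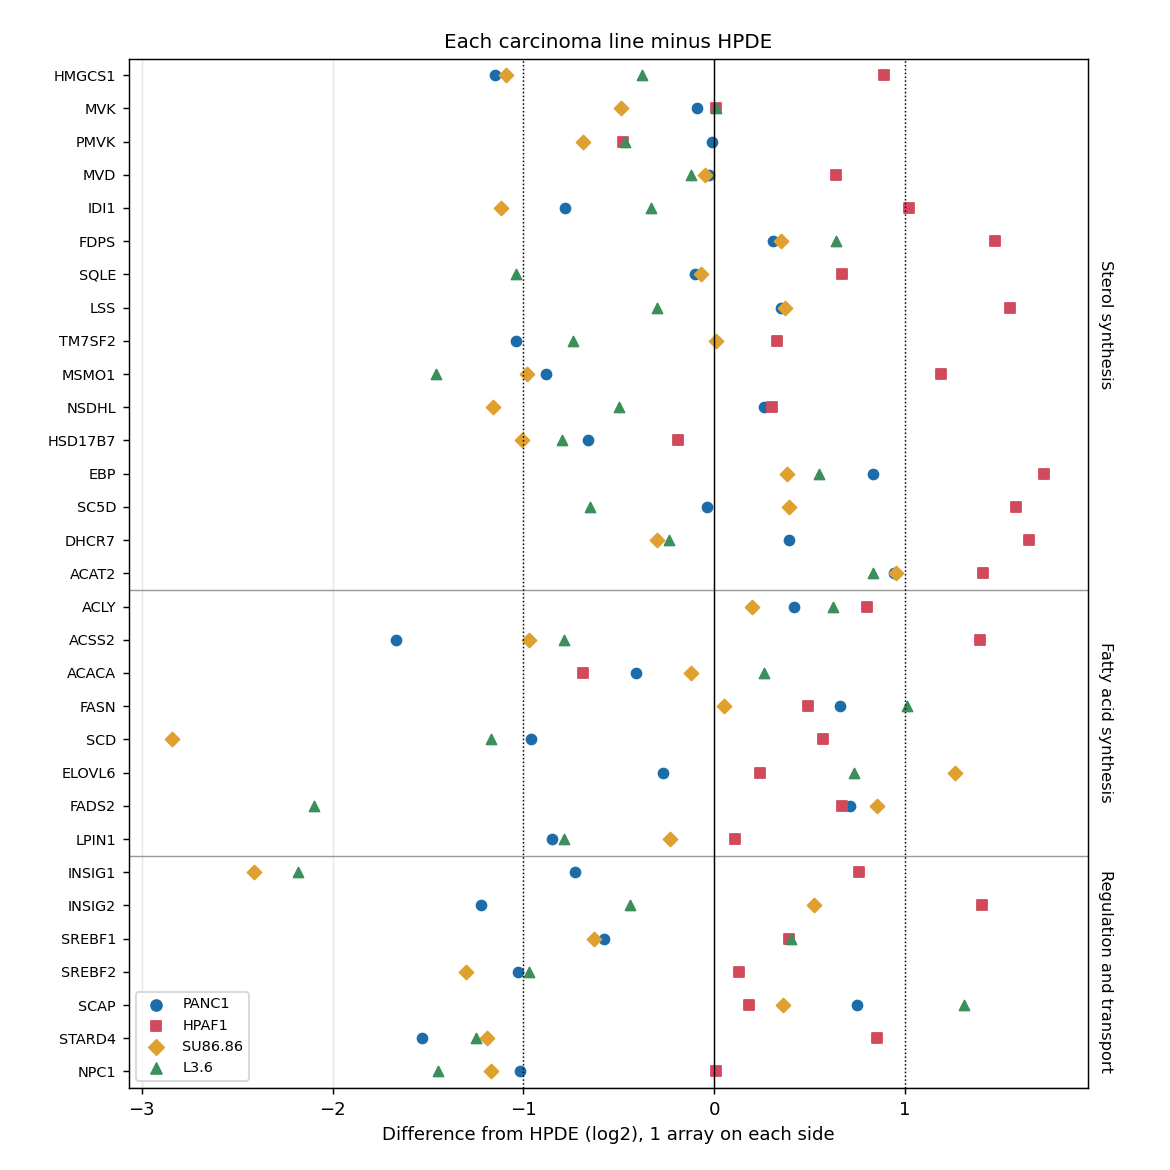
Level of each gene in a carcinoma line minus its level in HPDE (log2), with 1 array on each side and dotted lines at 2-fold. For STARD4 and NPC1 the points of PANC1, SU86.86 and L3.6 all lie beyond the 2-fold line on the low side, and those of HPAF1 do not. For NPC1 this holds on its brightest probe set only.

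The CCAAT boxes of the promoters were set beside these levels. Of 20 measured members with a box, 12 were at least 2-fold higher in HPAF1 than the other lines averaged, with a median difference of 1.37. Of 8 measured members whose promoters held none, 1 was, INSIG2, with a median of 0.59. Over all tested genes with a promoter the shares were 6.71% of 4829 genes with a box and 6.82% of 7056 genes without, and the medians -0.02 and -0.01. Boxes did not go with a high level in every member: MVK and NSDHL, with 5 each, differed by 0.15 and 0.65 in HPAF1, and ACACA, with boxes at 2 of its starts, by -0.62. SREBF2, with the sterol element, was 0.95 higher. Whether boxes go with these levels was not tested. Boxes were found for 13 of 15 sterol genes, 4 of 8 fatty acid genes and 3 of 7 genes of sensing and transport. Boxes were thus most frequent in the sterol branch, and box and branch were not separated here. SQLE, ACAT2 and FASN, for which no promoter was used, are in neither group.

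Over 7 lists of neighbouring lipid genes that are no members, 67 genes were measured, of which 7 were at least 2-fold higher in HPAF1 and 11 lower, beside 6.96% and 6.3% of all genes. Unadjusted limma p under 0.05 was reached in HPAF1 by 9 of the 67, beside 9.46% of all genes. Of 9 measured genes of SREBP processing and partner factors, 1 was at least 2-fold higher in HPAF1 and 0 lower. It was ERLIN2, which helps degrade sterol-sensing proteins, at 10.55 in HPAF1 and HPDE, 9.79 in SU86.86, then 9.40 in L3.6 and 7.68 in PANC1. MBTPS1, the Golgi protease that begins the cutting of SREBP, was highest in HPDE at 11.19 and lowest in L3.6 at 9.89, and ERLIN1 was highest in PANC1 at 12.34. Isoprenoids for other uses gave 0 higher and 1 lower of 7 in HPAF1. There DHDDS, which makes dolichol, was at 8.31 in HPAF1 and 9.31 to 10.03 elsewhere, the farnesyltransferase subunit FNTA ran from 10.36 in PANC1 to 12.48 in HPDE, and PDSS1, of coenzyme Q synthesis, from 8.38 in HPDE to 10.13 in L3.6.

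Sterol export and storage genes counted 0 higher and 2 lower of 11 in HPAF1, where 6.96% of all genes were higher and 6.3% lower. SOAT1, which stores cholesterol as esters, was at 6.86 in HPAF1, below the level filter, and at 8.89 to 9.95 in the other lines. NCEH1, which releases cholesterol from esters, ran from 8.37 in HPDE to 11.43 in PANC1, and the sterol exporter ABCG1 was highest in HPDE and lowest in PANC1, at 7.15. Among 5 genes that supply NADPH, 1 was higher in HPAF1, the isocitrate dehydrogenase IDH1, at 12.79, against 11.59 in HPDE, 10.97 in L3.6, 10.56 in PANC1 and 9.41 in SU86.86. IDH2 ran from 9.55 in L3.6 to 11.11 in PANC1, and TKT from 11.08 in HPDE to 12.58 in L3.6.

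Other elongation and desaturation genes gave 1 higher and 4 lower of 9 in HPAF1, where 6.96% of all genes were higher and 6.3% lower. ELOVL5, a polyunsaturated fatty acid elongase, was at 9.88 in HPAF1 and 11.30 to 12.31 elsewhere, and SCD5, a relative of SCD, at 6.90 in HPAF1 and 8.26 to 9.88 elsewhere. ELOVL2, of very long polyunsaturated chains, stood at 10.55 in PANC1 and at most 7.46 elsewhere. Acyl-CoA and glycerolipid genes gave 3 higher and 2 lower of 13 in HPAF1. ACSL5, which activates fatty acids, was at 12.28 in HPAF1 and 11.11 in SU86.86 but 7.02 in HPDE, MGLL, a monoglyceride lipase, at 11.73 in SU86.86 and 11.34 in HPAF1 but at most 8.23 elsewhere, and PLIN2, which coats lipid droplets, at 7.30 in HPAF1 and 8.50 to 10.22 elsewhere. Fatty acid uptake and oxidation gave 1 higher and 2 lower of 13. The higher gene was PPARG, a regulator of fat storage, at 10.79 in HPAF1 and 7.50 in HPDE, while the carrier FABP5 was at 10.74 in HPAF1 and at least 12.56 elsewhere, and SLC27A2 ran from 7.37 in PANC1 to 9.55 in L3.6. By limma 0 genes of these lists passed the adjusted threshold in any line, the lowest adjusted p being 0.0816, in PANC1 for ELOVL2.

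**Figure D4:**
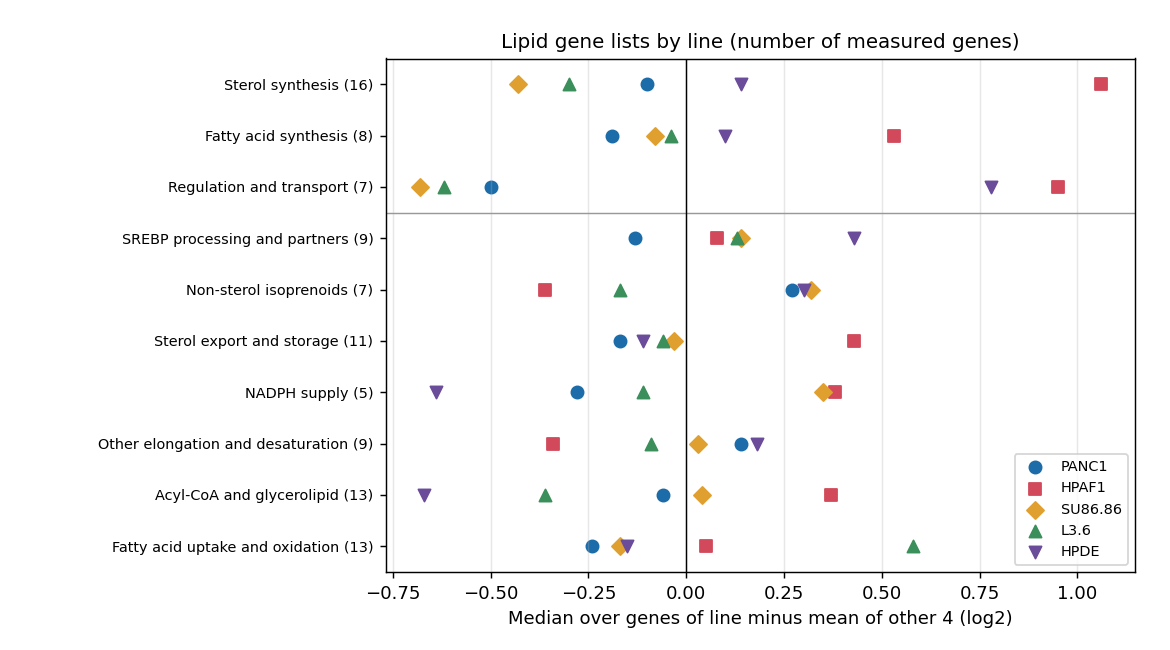
Median over the measured genes of each list of the difference between a line and the mean of the other 4 (log2), with the number of genes in parentheses and 1 symbol per line. HPAF1 is the highest line for the top 3 lists, from 0.53 to 1.06, and is at 0.43 or lower for the 7 other lists. Among those it is also the highest line for sterol export and storage (0.43) and for acyl-CoA and glycerolipid genes (0.37). For NADPH supply it is highest at 0.38, with SU86.86 at 0.35.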

How the data were processed

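RNA of 5 cell lines was measured on 1 array each. The deposited table holds linear intensity values of 54675 probe sets, and the sources used here do not say how the authors corrected for background, scaled or summarised them. The values were used without further normalization. They were transformed as log2(value + 71.1), the constant being the 25th percentile of positive values. Of the probe sets, 41091 carried 1 gene symbol in GEO's platform annotation, and 41037 of these were updated through RefSeq (GRCh38.p14). Each gene kept its brightest probe set by mean, and a gene was tested if any line reached the overall median (140 intensity units).

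Every line was set against the other 4, averaged, by limma (version 3.58.1, under R 4.3.3, two-sided, intensity trend, Benjamini-Hochberg adjustment over 14894 genes, 3 residual degrees of freedom). Differences of at least 2-fold are counted without a test. The script was tested on simulated data. Members and lists were chosen with earlier results of these data known. Every member was named, with its level in all lines where its range was at least 1 or it belonged to a fixed set of 7 genes, as were the 3 genes with the widest range of each neighbouring list. Alternatives changed the constant, the filter, the probe set, the normalization, the reference lines and, added after the data were seen, the trend. Precision is limited by having 1 array for a line.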

Additional observations from a re-analysis of the deposited data

How the results depend on the processing

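Of 391 values recomputed for counts and medians, 324 stayed within 1.5 times the count or within the largest spike-in standard deviation of the median. All 31 members passed without the level filter and with the stricter one, so their higher and lower counts and medians could not change there. Each of these settings gives 38 of the 324 values that stayed. HPAF1 had 0 members at least 2-fold lower under every alternative. When all probe sets of a gene were averaged, the HPAF1 medians were 0.78 for sterol and 0.73 for sensing and transport genes, the sensing and transport medians were -0.22 in PANC1, -0.38 in SU86.86, with -0.28 in L3.6 and 0.24 in HPDE, 0 members were higher in SU86.86 and 0 in HPDE, 3 were lower in L3.6, and against HPDE 4 were lower in PANC1, 0 higher in SU86.86 and 1 higher in L3.6. With probe sets able to match several transcripts set aside only where another existed (10 members have no other and kept theirs, and 30 members remained), the HPAF1 medians were 0.77 for sterol and 0.27 for fatty acid genes, the fatty acid median of L3.6 was 0.15, 1 member was higher in SU86.86 and 3 were lower in L3.6; FADS2 in L3.6 was then 0.02 and SC5D in HPAF1 -0.18, both turned in sign because another probe set was read. With no constant, or one of 16, 1 member was higher in PANC1 and 1 in L3.6 than in the others, and 2 were higher in SU86.86 than in HPDE. With no constant 1 was higher in PANC1 than in HPDE. With quantile normalization 0 were higher in SU86.86 and 1 in L3.6 than in the others, and against HPDE 1 was higher and 4 were lower in PANC1; the cause was not tested.

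With 1 other line left out in turn, sensing and transport medians ran from 0.83 to 1.23 in HPAF1, 0.53 to 1.10 in HPDE, -1.07 to -0.21 in L3.6, -0.75 to -0.28 in PANC1 and -0.89 to -0.34 in SU86.86. Sterol medians ran from 1.02 to 1.10 in HPAF1, 0.00 to 0.29 in HPDE, -0.46 to -0.22 in L3.6, -0.28 to 0.06 in PANC1 and -0.47 to -0.14 in SU86.86. Fatty acid medians ran from 0.36 to 0.56 in HPAF1, -0.04 to 0.26 in HPDE, -0.16 to 0.25 in L3.6, -0.43 to -0.16 in PANC1 and -0.14 to -0.10 in SU86.86. Higher members numbered 0 to 7 in HPDE, 0 to 1 in L3.6 and in PANC1, and 1 to 3 in SU86.86, and lower members 0 to 2 in HPDE, 2 to 8 in L3.6, 2 to 5 in PANC1 and 3 to 8 in SU86.86. Limma passed 0 members in any line under any alternative. No paired analysis was possible because each line has 1 array. Levels near the filter, as for INSIG1 in SU86.86 and FADS2 in L3.6, are limited by the signal over background.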
